A study of Neurospora crassa with 5 samples.

Results

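The genes described here were chosen for setting the RNA libraries apart by replicate number. Some of them also differed between crossed and uncrossed libraries of the same number. The libraries came from cultures of FGSC#4564, a Neurospora crassa strain labelled mat a[m1]s-3B cyh-1 that carries a mutant mat 1-2-1 gene. This filamentous ascomycete mates between A and a strains, and mat 1-2-1 is the mating-type gene of the a form. All cultures carried this mutant genotype and had grown for 6 days on synthetic crossing medium, when protoperithecia, the immature female fruiting bodies, were present. The uncrossed group (2 libraries, replicates 1 and 3) was collected before crossing. The crossed group (3 libraries, replicates 1, 2 and 3) was collected 2 h after conidia of the wild type FGSC#2489, a mat A strain, had been added. One plate made one replicate, and the labels do not say what a replicate number marks. All libraries came from a single mutant strain, and the crossed ones may include RNA from those conidia.

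Members were chosen by their values in these 5 libraries. A gene was a member if its log2 CPM (read counts scaled to library size, here TMM-scaled, with a prior count of 2) in both replicate 1 libraries lay at least 0.5 below, or at least 0.5 above, all of uncrossed replicate 3 and crossed replicates 2 and 3. Genes in which crossed replicates 2 and 3 both stood at least 1 to one side of the other 3 libraries were left out, which removed 3 lower and 5 higher genes. Of 10591 genes in the count table, 8638 passed the filter on low counts. Among these, 61 genes (0.706%) were lower and 52 genes (0.602%) were higher in both replicate 1 libraries, 113 in all. Because the same values chose the members, their separation by number is a description, and no test of it is given.

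Mating in Neurospora crassa begins with pheromones. The ccg-4 gene encodes the pheromone precursor of mat A cells and mfa-1 that of mat a cells. The receptor gene pre-1 acts in mat A cells, where it serves recognition of the mat a pheromone, and pre-2 acts in mat a cells. The mating-type locus on chromosome I holds either the A idiomorph, with matA-1, matA-2 and matA-3, or the a idiomorph. The matA-1 gene encodes the main regulator of mating identity in A strains.

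Transcripts of the A idiomorph were present in libraries labelled as an uncrossed mat a strain, which goes against what the strain label alone would give. The libraries held 25817200 to 39639683 counts, and ribosomal RNA genes took 14.3% and 19.3% of them in the uncrossed and crossed replicate 1 libraries. That share was 21.3% in uncrossed replicate 3, 34.0% in crossed replicate 2 and 33.6% in crossed replicate 3, so it too was lowest in the replicate 1 libraries. Its part in the members' pattern was not tested. TMM placed the median gene at a difference of -0.0035 on the log2 scale between the replicate 1 libraries and the other 3. Plain library sizes placed it at 0.25, and under that scaling 32 genes were lower and 99 higher.

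The lower members included 4 mating genes. The pheromone gene ccg-4 (NCU02500) had 9.12 and 8.16 CPM in the uncrossed and crossed replicate 1 libraries. It had 69.5 CPM in uncrossed replicate 3, and 128.2 and 128.1 CPM in replicates 2 and 3 of the crossed group. The other 3 libraries averaged 12.6 times the mean of the replicate 1 libraries, and the gap of 2.92 on the log2 scale was the widest of all lower members. Uncrossed and crossed values of ccg-4 overlapped, since crossed replicate 1 was the lowest library of all.

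The mating-type gene matA-1 (NCU01958) had 5.17 and 7.15 CPM in the uncrossed and crossed replicate 1 libraries. It had 17.4 CPM in uncrossed replicate 3, 27.2 CPM in crossed replicate 2 and 25.04 CPM in crossed replicate 3, a mean 3.77 times that of the replicate 1 libraries. The order of the libraries was that of ccg-4 except within the replicate 1 pair. The matA-3 gene (NCU01960), which encodes an HMG-box protein of the A idiomorph, had 0 counts in both replicate 1 libraries. For counting error only, a count of 0 allows a level of up to 0.102 CPM (uncrossed) and 0.0841 CPM (crossed) in them. It had 17 counts in uncrossed replicate 3, 13 in crossed replicate 2 and 7 in crossed replicate 3, so no level of this gene exceeded 0.406 CPM. Its neighbour matA-2 (NCU01959) was not tested, with 3 counts in all, every one from crossed replicate 2.

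The receptor gene pre-1 (NCU00138), a lower member, had close values on each side of the gap. It had 4.80 and 5.10 CPM in uncrossed and crossed replicate 1, against 10.9 CPM in uncrossed replicate 3 and 11.4 and 10.4 CPM in replicates 2 and 3 of the crossed group. The receptor gene pre-2 (NCU05758) lay on the same side and missed the rule, with a gap of 0.44. Its values were 0.987 and 1.04 CPM in the replicate 1 libraries, 1.46 CPM in uncrossed replicate 3, and 1.63 and 1.42 CPM in replicates 2 and 3 of the crossed group. The a-type pheromone gene mfa-1 (NCU16992) did not follow replicate number. Before crossing its level was 61.0 CPM (replicate 1) and 59.7 CPM (replicate 3), and after crossing 29.7, 30.7 and 28.1 CPM in the order of the replicate numbers. Of the 6 mating genes tested, 4 (66.7%) were lower members, against 0.706% of all tested genes, and none was a higher member. Among the 4, ccg-4 was already named as an example of the pattern when the rule was set, so this count is a description. In 5 of the 6 the replicate 1 libraries lay below all others, against 12.9% of all tested genes.

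**Figure D1:**
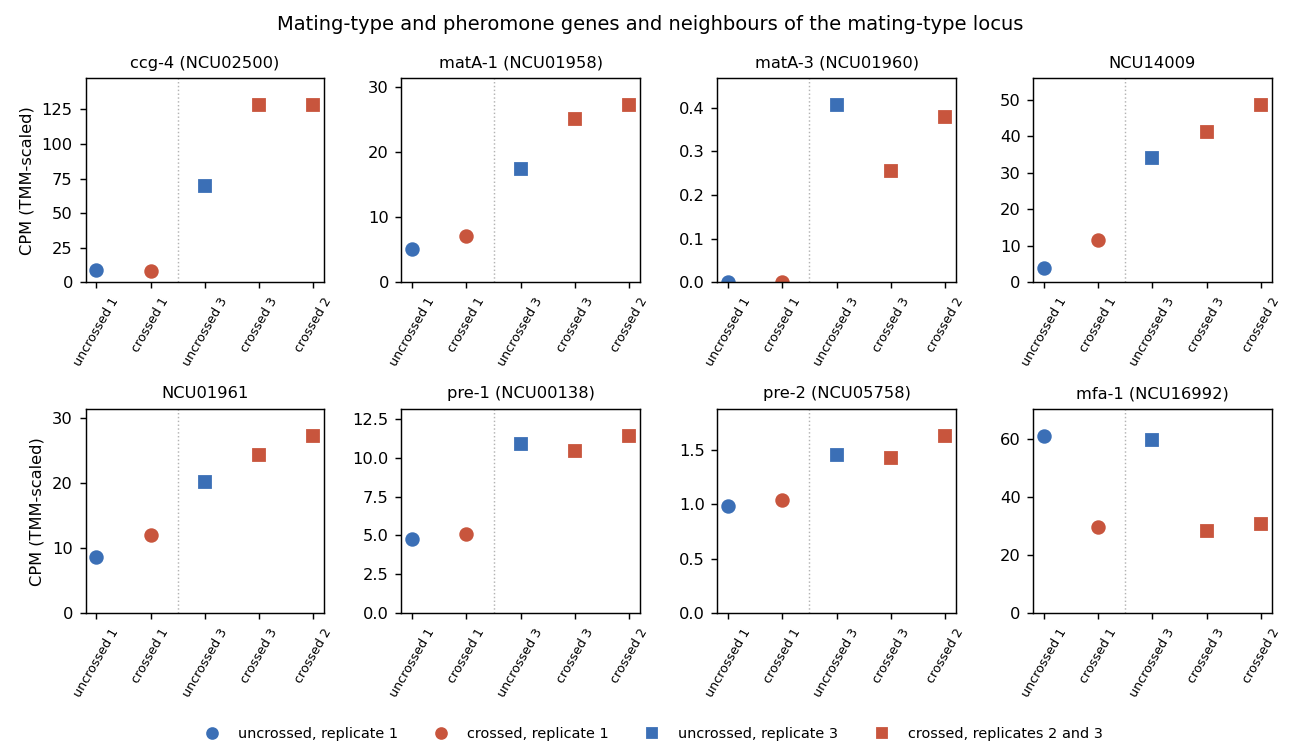
CPM (TMM-scaled, linear axes from 0) of 8 genes in each library, 1 point per library, with circles for replicate 1, squares for replicates 2 and 3, blue for uncrossed and red for crossed. In ccg-4, matA-1, matA-3, NCU14009, NCU01961 and pre-1 both circles lie below all 3 squares, whereas mfa-1 is near 60 CPM in the uncrossed and near 30 CPM in the crossed libraries.

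Some neighbours of the mating-type locus were lower members as well. Within 10 tested genes on either side of matA-1, 4 of 21 genes (19.0%) met the rule, matA-1 and matA-3 among them, and the others did not. In the gene order of assembly NC12, NCU01961, matA-3, matA-1 and the non-coding RNA gene NCU14009 followed each other without another tested gene between them, and all 4 were lower members. NCU14009 had 3.88 and 11.7 CPM in uncrossed and crossed replicate 1, 34.2 CPM in uncrossed replicate 3, and 48.6 and 41.3 CPM in crossed replicates 2 and 3. NCU01961 had 8.64 and 12.1 CPM in uncrossed and crossed replicate 1, 20.2 CPM in uncrossed replicate 3, and 27.3 and 24.4 CPM in crossed replicates 2 and 3. In both genes uncrossed replicate 1 was the lowest library and crossed replicate 2 the highest. The strand setting of the counting was not stated, so reads of overlapping neighbours may not be separated.

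With these 4 adjoining genes counted in, 24 of the 61 lower members (39.3%) lay on chromosome I. It holds 25.0% of all tested genes and 19.2% of the higher members. Within 100 tested genes on either side of matA-1, 8 of 201 genes (3.98%) were lower members, the same 4 among them, and 0 were higher members. Within 400 tested genes the count was 15 of 794 (1.89%) for lower and 4 (0.504%) for higher members. On the rest of chromosome I it was 9 of 1362 (0.661%) for lower members, and on the other chromosomes 37 of 6482 (0.571%). These window sizes were chosen after the positions had been seen, and the counts are descriptions with no test. The gene ccg-4 lay 143 tested genes from matA-1.

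**Figure D2:**
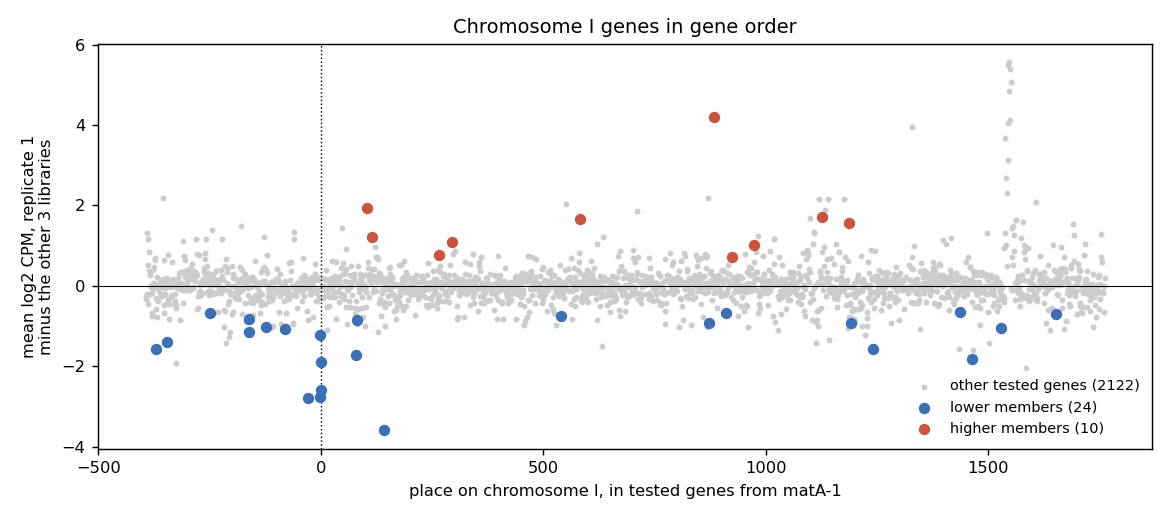
Difference in mean log2 CPM between the replicate 1 libraries and the other 3 (vertical axis) for tested genes of chromosome I in gene order (horizontal axis, in tested genes from matA-1), with 24 lower members in blue, 10 higher members in red and other tested genes in grey. Blue points gather at and around 0, and the tall grey group near the right end is a block of neighbouring genes that was high in uncrossed replicate 1 and did not meet the rule.

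No other lower member had a gene symbol in the NC12 table. The 4 of 61 (6.56%) with one were ccg-4, matA-1, matA-3 and pre-1, against 12.7% of all tested genes. Among lower members with a mean of at least 10 CPM, the next widest gaps belonged to genes known here by locus tag alone. NCU08095 on chromosome I had 32.0 and 37.5 CPM in uncrossed and crossed replicate 1, 79.6 CPM in uncrossed replicate 3, and 101.6 and 94.1 CPM in crossed replicates 2 and 3. NCU02122, also on chromosome I, had 75.5 and 63.1 CPM in the replicate 1 libraries, 172.1 CPM in uncrossed replicate 3, and 144.4 and 140.5 CPM in crossed replicates 2 and 3. Here uncrossed replicate 3 was the highest library, unlike in ccg-4, and its neighbour NCU02123 was a lower member as well.

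NCU07740 on chromosome V had 8.10 and 7.35 CPM in uncrossed and crossed replicate 1, 17.8 CPM in uncrossed replicate 3, and 16.9 and 15.7 CPM in crossed replicates 2 and 3. NCU17055 on chromosome VI had 34.7 and 59.5 CPM in the replicate 1 libraries, 96.9 CPM in uncrossed replicate 3, and 105.3 and 107.04 CPM in crossed replicates 2 and 3. NCU08738 on chromosome II had 43.8 and 43.0 CPM in the replicate 1 libraries, 70.1 CPM in uncrossed replicate 3, and 101.6 and 95.9 CPM in replicates 2 and 3 of the crossed group. The first of these had the other 3 libraries at one level, whereas in NCU08738 uncrossed replicate 3 stood between the replicate 1 libraries and the remaining crossed ones. The lower member with the highest level in CPM, NCU06603, had 632 and 724 CPM in the replicate 1 libraries and 1087, 1113 and 1094 CPM in uncrossed replicate 3 and crossed replicates 2 and 3.

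Non-coding genes made up more of the lower members than of all tested genes. There were 5 ncRNA genes (8.20%, against 1.44% of tested genes) and 4 ribosomal RNA genes (6.56%, against 0.185%), while all 52 higher members were protein-coding. The ribosomal RNA members are uncertain, since near-identical copies can share reads. NCU15745, for example, had 0 and 14.8 CPM in uncrossed and crossed replicate 1, 60.02 CPM in uncrossed replicate 3, and 93.5 and 80.0 CPM in crossed replicates 2 and 3. With ribosomal RNA genes left out of the table, 57 of the 61 lower members met the rule again.

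Higher members included enzymes of amino acid and plant cell wall breakdown. The lao gene (NCU01066), which encodes L-amino acid oxidase, an enzyme that deaminates amino acids, had 977 and 256 CPM in the uncrossed and crossed replicate 1 libraries. It had 86.8 CPM in uncrossed replicate 3, and 75.4 and 68.8 CPM in replicates 2 and 3 of the crossed group. The replicate 1 mean was 8.01 times that of the other libraries, but the replicate 1 libraries themselves differed by 1.93 on the log2 scale. Its neighbour NCU01065 was also a higher member, with 488 and 333 CPM in the replicate 1 libraries and 198, 211 and 217 CPM in uncrossed replicate 3 and crossed replicates 2 and 3.

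NCU07748 had 461 and 385 CPM in uncrossed and crossed replicate 1, 120.5 CPM in uncrossed replicate 3, and 105.6 and 106.3 CPM in crossed replicates 2 and 3, a ratio of means of 3.82. NCU04907 had 209.6 and 196.2 CPM in the replicate 1 libraries, against 100.5 CPM in uncrossed replicate 3 and 100.5 and 103.1 CPM in crossed replicates 2 and 3. NCU08225 had 204.8 and 187.9 CPM in the replicate 1 libraries, against 112.1, 109.3 and 112.7 CPM in the others in the same order. These last genes showed a plain step, with the libraries on each side of it close together whether crossed or not.

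The fusion gene ham-9 (NCU07389), needed for hyphal anastomosis, showed a smaller step. It had 167.8 and 158.4 CPM in uncrossed and crossed replicate 1, 105.5 CPM in uncrossed replicate 3, and 96.6 and 96.7 CPM in crossed replicates 2 and 3. Of 21 tested genes in the cell fusion list 1 was a member (4.76% higher members), a count too small to compare with the 0.602% of all tested genes. NCU06235 had 63.1 and 67.7 CPM in the replicate 1 libraries and between 32.7 and 36.2 CPM in the others. NCU04480 had 22.6 and 20.1 CPM in the replicate 1 libraries and between 9.81 and 12.01 CPM in the others.

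In several higher members uncrossed replicate 1 stood well above crossed replicate 1. NCU05518 had 145.2 and 83.6 CPM in uncrossed and crossed replicate 1 and 32.9 to 39.2 CPM in the others. NCU09406 had 210.2 and 88.8 CPM there and 30.0 to 48.1 CPM in the others. NCU03863 had 25.8 and 16.0 CPM there and 7.96 to 9.24 CPM in the others. NCU06079 showed the reverse order, with 60.3 and 71.8 CPM in uncrossed and crossed replicate 1, 36.4 CPM in uncrossed replicate 3, and 17.96 and 19.1 CPM in crossed replicates 2 and 3.

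**Figure D3:**
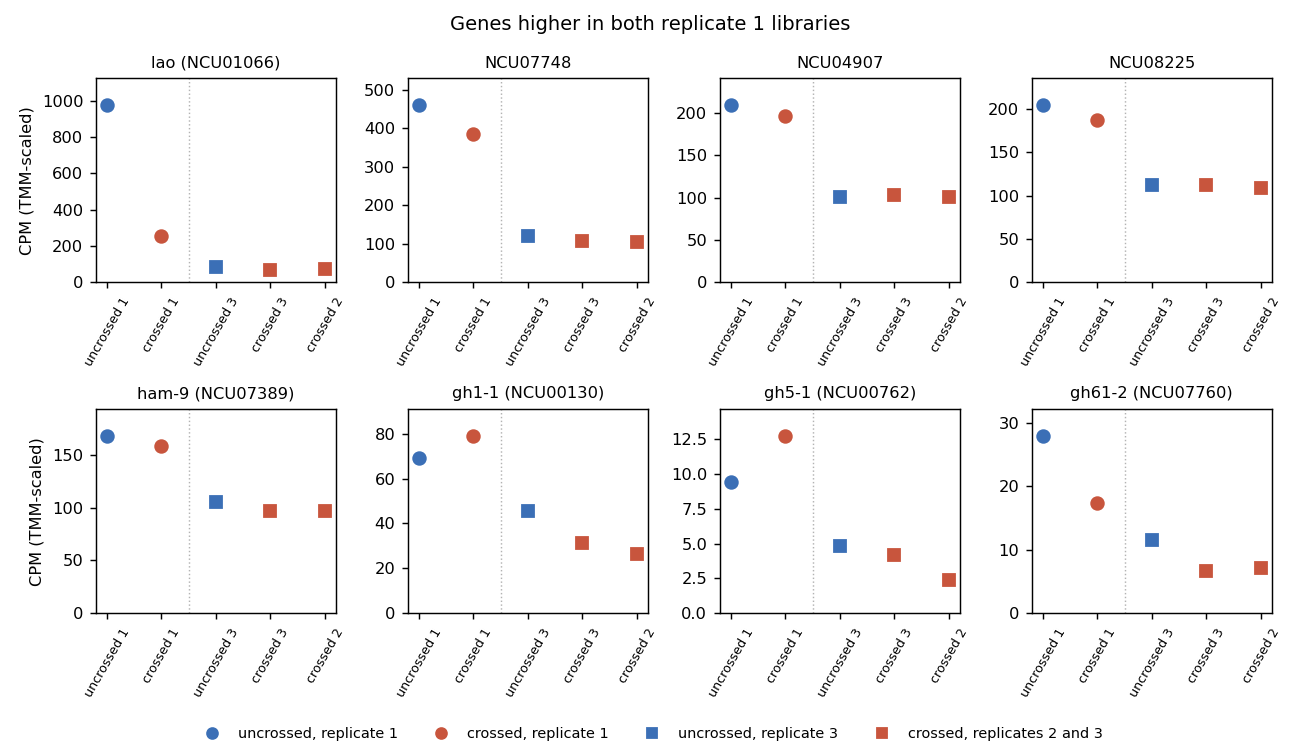
CPM (TMM-scaled, linear axes from 0) of 8 higher members in each library, 1 point per library, with circles for replicate 1, squares for replicates 2 and 3, blue for uncrossed and red for crossed. NCU04907, NCU08225 and ham-9 show 2 compact levels, whereas lao falls from 977 to 256 CPM within the replicate 1 pair.

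Genes listed by symbol as carbohydrate-active enzymes supplied 4 of the 6 higher members with a symbol. That list held 78 of the 1097 tested genes with a symbol. It includes glycoside hydrolases, the enzymes that cut polysaccharides, such as gh1-1 and gh5-1. The beta-glucosidase gene gh1-1 (NCU00130) had 69.3 and 79.0 CPM in uncrossed and crossed replicate 1, 45.7 CPM in uncrossed replicate 3, and 26.5 and 31.4 CPM in replicates 2 and 3 of the crossed group. The gene gh5-1 (NCU00762) had 9.43 and 12.7 CPM in the replicate 1 libraries and 2.39 to 4.80 CPM in the others. Of the tested family 61 genes, known as lytic polysaccharide monooxygenases that oxidise cellulose, only gh61-2 and gh61-7 were members. On the same side, gh61-9, gh61-4 and gh61-5 missed the rule with gaps of 0.36, 0.28 and 0.18. On the lower side lay gh61-8, with a gap of 0.40, and gh61-1, gh61-3 and gh61-6 lay on neither side. The gh61-2 gene (NCU07760) had 27.98 and 17.4 CPM in the replicate 1 libraries and 6.72 to 11.6 CPM in the others. The gh61-7 gene (NCU00836) had 2.08 and 6.51 CPM in the replicate 1 libraries and 0.840 to 1.31 CPM in the others.

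Over the whole list of 78 tested genes with symbols of carbohydrate-active enzymes, 4 (5.13%) were higher members, against 0.602% of all tested genes. None of the 78 was a lower member, and that share was 0.706% over all tested genes. The replicate 1 libraries lay above all others in 21 of them (26.9%), against 12.4% of all tested genes, and below all others in 6 (7.69%), against 12.9%. The median difference between replicate 1 and the other libraries was 0.12 on the log2 scale. Symbols built this list, and 2 of its genes, cel-1 and cel-2, are known as fatty acid synthase genes. Both were among the 21 genes with the replicate 1 libraries above all others. The shares are descriptions over the values that chose the members.

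Of 28 lists of genes built from symbols, 24 held no member. With 0.706% of tested genes lower and 0.602% higher members, lists of this size hold few by their size alone, and their counts of 0 are not read as a result. None of the 11 heat shock and chaperone genes, 47 amino acid synthesis genes, 13 cytosolic ribosomal protein and translation factor genes, 50 respiratory chain genes or 37 meiosis and recombination genes was a member. In the respiratory chain list the replicate 1 libraries lay above all others in 11 of 50 genes (22.0%), against 12.4% of all tested genes. The gaps of these 11 genes ran only from 0.0072 (atp-1) to 0.0872 (nuo14.8), far short of the 0.5 of the rule. Some smaller lists without a member, such as those of the quinic acid cluster and of phosphorus use, had larger shares. None of the 5 conidial markers was a member either. Their summed level was 15160 and 35720 CPM in uncrossed and crossed replicate 1, 30530 CPM in uncrossed replicate 3, and 64030 and 59580 CPM in crossed replicates 2 and 3, so crossed replicate 1 exceeded uncrossed replicate 3. The hydrophobin gene eas made up most of that sum in every library, and none of the 5 markers was at 0. Of 6 genes listed as markers of female structures, 4 were tested, and their summed level was 3354 and 4744 CPM in the replicate 1 libraries and 8000, 4786 and 4437 CPM in uncrossed replicate 3 and crossed replicates 2 and 3. Most of that sum came from poi-2 in every library, with 2999 CPM in uncrossed replicate 1 against 7649 CPM in uncrossed replicate 3. None of fsd-1, pp-1 and sub-1 was highest in uncrossed replicate 3, where fsd-1 was at its lowest (53.6 CPM). In such bulk samples fewer cells of a type and less RNA per cell cannot be told apart, and the part of either marker list in the members' pattern was not tested.

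The members differed in how compact their levels were. The gap exceeded both the difference within the replicate 1 pair and the spread over the other 3 libraries in 41 of 61 lower and 27 of 52 higher members. Gaps ran from 0.50 to 2.92 with a median of 0.68 among lower members, and from 0.50 to 1.89 with a median of 0.66 among higher members. A gap of at least 1 was reached by 17 lower and 9 higher members. Near the threshold, NCU07405 lay inside with a gap of 0.51 and NCU04615 outside with a gap of 0.4985 among lower genes. NCU11308 lay inside with 0.5044 and NCU04904 outside with 0.49 among higher genes.

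Many lower members were weakly expressed. The mean was below 1 CPM in 15 of 61 lower members (24.6%) and 6 of 52 higher members (11.5%), against 5.86% of all tested genes. A count of 0 in some library occurred in 8 lower and 4 higher members, against 87 of 8638 tested genes. A mean of at least 10 CPM was reached by 22 lower and 27 higher members, against 6797 of 8638 tested genes. The annotated gene was 1794 bases long in the median lower member and 1800 bases in the median higher member, against 2281 bases over all tested genes. Neighbouring genes that were both members formed 2 groups among lower members, of 4 and 2 genes, and 2 groups of 2 genes among higher members.

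**Figure D4:**
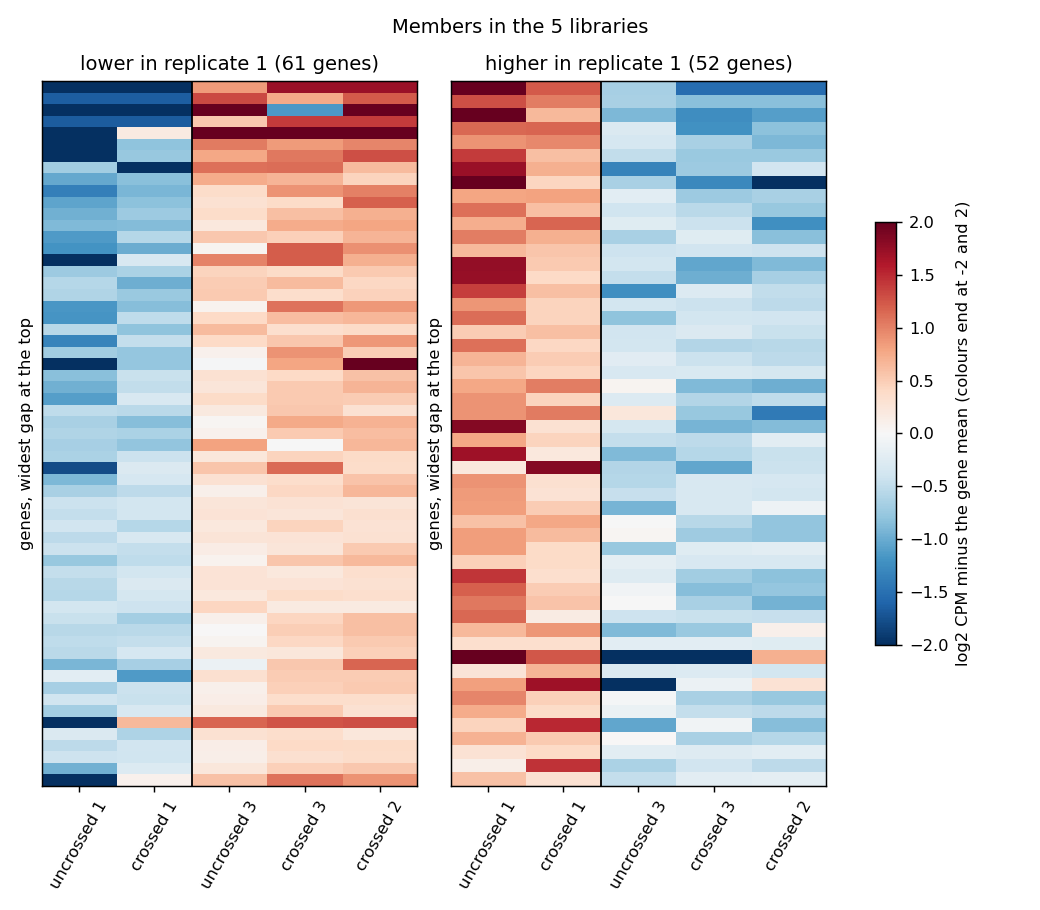
Log2 CPM minus the gene's mean over the 5 libraries (colour, ending at -2 and 2) for 61 lower and 52 higher members, 1 row per gene with the widest gap at the top and 1 column per library. The black line separates replicate 1 from the other libraries. The step at that line is set by the rule, and in some rows, such as that of NCU06079, the value of uncrossed replicate 3 lies near the gene's mean.

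Within a replicate number, single uncrossed and crossed libraries could be set side by side, though the labels do not make them pairs. From uncrossed to crossed replicate 1 the median lower member differed by 0.19 on the log2 scale and the median higher member by -0.33. From uncrossed to crossed replicate 3 the medians were 0.21 and -0.16, and over all tested genes both medians were 0.00. The difference was under 0.5 in size in 44 of 61 lower members (72.1%) within replicate 1 and in 47 (77.0%) within replicate 3, against 73.7% and 75.3% of all tested genes. In higher members these counts were 30 of 52 (57.7%) and 31 (59.6%). In ccg-4 the values went from 9.12 to 8.16 CPM within replicate 1 and from 69.5 to 128.1 CPM within replicate 3. Uncrossed replicate 3 lay below both crossed replicates 2 and 3 in 44 of 61 lower members, against 3820 of 8638 tested genes. It lay above both in 29 of 52 higher members, against 3786 of 8638 tested genes. Each of these differences rests on single libraries and carries no test.

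**Figure D5:**
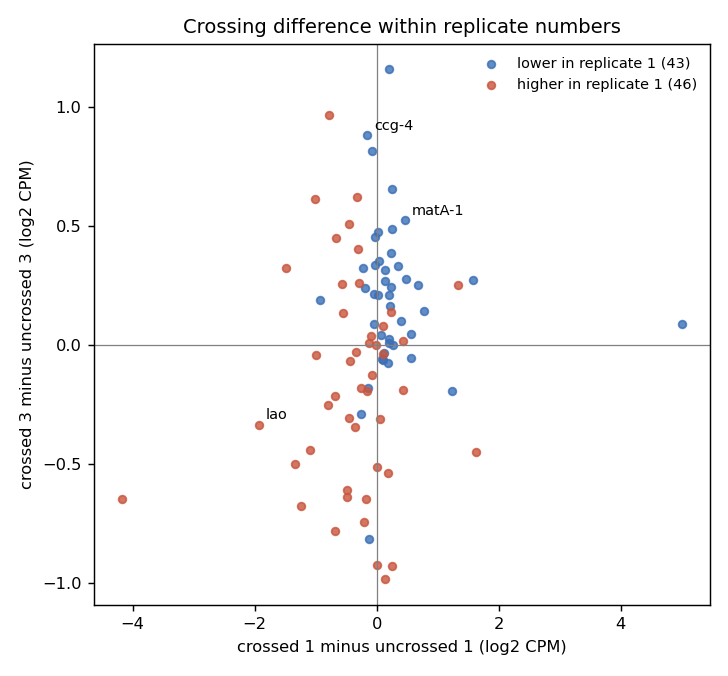
Difference in log2 CPM from uncrossed to crossed replicate 1 (horizontal axis) and from uncrossed to crossed replicate 3 (vertical axis), 1 point per protein-coding or ncRNA member that averaged 1 CPM or more, for 43 lower members in blue and 46 higher members in red. Points lie on both sides of 0 on both axes, and lao stands at -1.93 on the horizontal axis.

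The crossed group was compared with the uncrossed group over all genes, as the design implies. By the quasi-likelihood test of edgeR, adjusted after Benjamini and Hochberg, 0 of the 113 members passed an adjusted p of 0.05, and 4 of 8638 tested genes (0.0463%) did. At an unadjusted p under 0.05 there was 1 member, against 21.3% of all tested genes, and DESeq2 called 0 members, against 11.4% of them. The rule asks for a wide spread within both groups, so few calls among members follow from it and nothing is read from them. A missed threshold does not show that crossing left these genes alone. The log2 fold change of ccg-4 was 1.16 (SE 1.29, adjusted p = 0.611 by edgeR) and that of lao -1.997 (SE 1.05, adjusted p = 0.319 by edgeR). The fold change was above 0 in 54 lower members and below 0 in 46 higher members, against 4327 above and 4310 below 0 over all tested genes. Replicate 1 is 1 of 2 uncrossed but 1 of 3 crossed libraries, so these signs follow largely from how the members were chosen and are not read as a direction of crossing.

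The authors' deposited table of relative expression, which gives 1 estimate per stage, placed the intervals of the stages apart in 79.1% of 8629 tested genes. With intervals apart, the authors' deposited table placed 1419 of these genes higher and 5408 lower in crossed cultures, so that lower was the more frequent direction in general. Of the 60 lower members listed, the authors' deposited table placed 16 higher and 9 lower. Of the 52 higher members, the authors' deposited table placed 3 higher and 42 lower, which is the side that was more frequent over all genes too. As with the fold changes, the sides of both sets of members may follow largely from how the members were chosen. They are not read as a direction of crossing. The ratio of crossed to uncrossed was 1.64 for ccg-4 and 0.275 for lao in the authors' deposited table. The sources used here do not say how replicates were combined in it.

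Genes with profiles most like that of ccg-4 were sought over the 5 libraries by Pearson correlation of log2 CPM. The 5 with the highest r were NCU06368 (0.999), NCU02779 (0.999), NCU01988 (0.999), NCU02972 (0.998) and NCU07405 (0.996). With 5 points that share libraries and scaling, such values describe order and spacing and carry no p. NCU02779, NCU01988 and NCU07405 were lower members on chromosome I. NCU01988 had 0 counts in both replicate 1 libraries and 9 to 15 in the others, so its r rests on few counts. NCU02972, with 273 and 273 CPM in the replicate 1 libraries and 305 to 318 CPM in the others, had a gap of 0.16, so a like profile did not require a like size of difference.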

How the data were processed

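The members and all gene lists were chosen with earlier results of these data known. RNA was sequenced as total RNA with a stranded TruSeq kit (101 bp paired reads), per the labels' protocols. CASAVA 1.8.2, fastp, HISAT2 2.1.0 and StringTie 1.3.3b are named in the submitters' processing notes; for the counting tool, genome build, annotation and strand setting, the sources used here give nothing. The authors deposited whole-number counts per gene for 5 mutant libraries. A second deposited table gives each stage's relative expression as a ratio to a reference level with an interval, made by the authors.

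Genes were filtered with filterByExpr by group and scaled by TMM in edgeR 4.0.16 (R 4.3.3). Crossing was tested by edgeR's quasi-likelihood test, with p-values adjusted by Benjamini-Hochberg and a threshold of 0.05, and alternatively by DESeq2 1.42.0. The edgeR fit and the member rule were also run on simulated counts with planted changes, which checks the code and not the fit to these libraries. Fold changes print with standard errors from the quasi-likelihood test. Of 10591 locus tags, 10590 matched the NC12 RefSeq table, used for symbols, biotype, length and gene order alone. Named genes were the mating list, the 10 widest gaps per direction at 10 CPM or more, members with symbols, genes nearest the threshold, and the 5 profiles most like ccg-4; NCU06603, NCU01065, NCU02123 and the ribosomal RNA copies were added after their values were seen. The plates are separate biological replicates per the labels. One row with 6 values for 5 libraries, wild-type libraries, promoter sequences and protein sequences were not analysed here.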

Additional observations from a re-analysis of the deposited data

Results flagged for a closer look

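The count table holds 1 row, named for the a form of the mating-type gene, that carries 6 values for 5 libraries. Its lowest value was 7 counts, above the 3 counts that a count of 0 allows. The values cannot be assigned to libraries, so the row entered no comparison, and it gives no level of the mutated gene in any library.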

How the results depend on the processing

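The number of lower members was 61 and that of higher members 52. With plain library sizes they were 32 and 99, of which 31 and 49 were among the main members. A gap of 1 gave 17 and 9, and a gap of 0.25 gave 216 and 170. Leaving out 1 library at a time gave 77 to 498 lower and 57 to 552 higher genes. The counts were 184 and 149 without uncrossed replicate 1, 423 and 344 without uncrossed replicate 3, and 498 and 552 without crossed replicate 1. Of the main members 33 lower and 29 higher remained without uncrossed replicate 3, and at least 57 lower and 47 higher remained without any other library. Without uncrossed replicate 3, the rule set replicate 1 against crossed replicates 2 and 3 alone. Genes in which these crossed libraries stood at least 1 to one side were still left out. Members with wide gaps, such as ccg-4, were therefore removed by the rule itself. How many of the lost members this covered was not counted. DESeq2 size factors, leaving out ribosomal RNA genes, no filter, a filter of 1 CPM, a prior count of 0.5 and keeping the excluded genes each gave counts within 1.5 times the main ones. For crossing, edgeR called 4 genes and DESeq2 987 of all genes it tested. Leaving out 1 library gave 0 to 762 calls (192 without uncrossed replicate 3, 762 without crossed replicate 1) and 0 to 1 calls among members. That 1 was NCU06077 without uncrossed replicate 3 (adjusted p = 0.0415 by edgeR), where uncrossed replicate 1 is the lone uncrossed library and is assumed to vary like the crossed ones. A replicate block gave 266 calls and 2 among members, the ribosomal RNA gene NCU15716 (adjusted p = 0.00957 by edgeR) and NCU09406 (adjusted p = 0.0496 by edgeR). Number 2 occurs among crossed libraries only, and same-numbered libraries deviated from their group means with correlations of 0.257 for number 1 and 0.224 for number 3. With 2 uncrossed libraries, their deviations mirror each other, so these correlations are not independent of each other. Same-numbered libraries share only a number, since the labels give it no meaning. The log2 fold change of ccg-4 stayed above 0 and uncalled in all fits run, from 0.34 to 3.27.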

Other observations

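A block of 9 consecutive tested genes on chromosome I, from NCU02918 to NCU02926 in NC12 gene order, was high in uncrossed replicate 1 alone. These genes had 16.98 to 221 CPM there, against 0.502 to 13.04 CPM in uncrossed replicate 3 and 0.309 to 11.4 CPM in crossed replicate 1. In crossed replicates 2 and 3 they had 0 to 2.13 CPM and 0.110 to 2.12 CPM. None was a member, because crossed replicate 1 did not stand at least 0.5 above uncrossed replicate 3. The block was chosen after its values had been seen and was not tested.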
